A study of Homo sapiens with 2 samples.

Results

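The inhibitor of DNA binding genes ID1, ID2, ID3 and ID4 are described here together with 6 genes of bone morphogenetic protein (BMP) and transforming growth factor beta (TGF-beta) signalling, namely the ligand genes BMP4 and BMP7, the signal transducer gene SMAD3, the inhibitory SMAD genes SMAD6 and SMAD7, and the receptor gene TGFBR2. They were named by symbol, with no threshold on a measured value but with earlier results of these data known, and all 10 were found among the 16005 genes of the deposited table. The cells were BE(2)-C, an established human neuroblastoma line with amplified MYCN, labelled wild type. One group was kept in EMEM/F12, a classical culture medium, and the other in HPLM, which is formulated after the metabolite and salt content of human plasma. Both groups were cultured for 7 days with 10% FBS and 1% P/S, and polyadenylated RNA was sequenced. The series lists 1 sample per medium, for which the table holds 3 numbered libraries each. Whether the libraries of a medium came from separate cultures is not said in the labels, and all p-values then reflect the library-to-library spread alone, which may be technical.

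BMP and TGF-beta ligands are secreted dimers that bind paired type I and type II serine/threonine kinase receptors. The activated receptors phosphorylate SMAD proteins, chiefly SMAD1, SMAD5 and SMAD9 for BMPs and SMAD2 and SMAD3 for TGF-beta and activins, which enter the nucleus with SMAD4. ID1, ID2, ID3, SMAD6 and SMAD7 are among the best known genes switched on by BMP signalling. SMAD6 and SMAD7 proteins act back on the pathway as inhibitors, while ID proteins, which lack a DNA-binding domain, bind basic helix-loop-helix (bHLH) transcription factors and keep them off DNA. In the sympathetic lineage, from which neuroblastoma arises, BMPs act early to switch on bHLH and homeobox regulators such as HAND2 and PHOX2A, and ID2 is a known target of MYC family proteins.

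Levels are given as normalised reads, which are read counts that the authors divided by a factor per library, and changes as log2 ratios of the mean in HPLM over the mean in EMEM/F12, ± SE. The words rose and fell mark genes with an adjusted p under 0.05 in the authors' deposited table. Libraries held 17504237 to 21676080 reads. EMEM/F12 library 3 stood apart from libraries 1 and 2. Of 10967 genes with a mean of at least 100 in EMEM/F12, it lay at least 2-fold above both for 94 and at least 2-fold below both for 4. All 12 adrenergic neuroblastoma markers were lowest in library 3 among the EMEM/F12 libraries, with a summed level of 256732 normalised reads against 298282 and 300258. Of 10 mesenchymal neuroblastoma markers 8 were highest there, with a sum of 46102 against 23406 and 26228. Of 10 fibroblast markers, 7 were highest there, with a sum of 93574 against 44912 and 47076. In HPLM the sums were 226015 to 235409 for the adrenergic, 33030 to 38832 for the mesenchymal and 74972 to 82469 for the fibroblast list, and PDGFRB stands in both of the latter. The sums do not stand for each gene, as in both the mesenchymal and the fibroblast list 1 gene rose, 2 fell and 7 did not pass. Thus 30% of each of these lists passed, beside 55.6% of all tested genes. The adrenergic markers of the labelled cell type were thus measured in full, but so were the 10 mesenchymal and 10 fibroblast markers, at lower sums in every library. The endothelial and blood lists had 1 of 6 genes each in the table (TEK and CD14), at 1.03 to 36.1 and 43.8 to 74.4 normalised reads. Of the Schwann and glial list 4 of 7 genes were measured, with sums of 153 to 189 in EMEM/F12 and 308 to 315 in HPLM, and of the epithelial list 4 of 6, with sums of 226 to 269.6 and 421 to 489.6.

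Of the 10 genes, 7 passed the test, with 4 higher in HPLM (ID1, ID2, ID4 and SMAD7) and 3 lower (ID3, BMP7 and SMAD3). Over all genes, 55.6% of the 16004 tested genes passed, 26.8% as higher and 28.8% as lower, so passing the test is common in this comparison. BMP7 was the 1 gene of the 10 that passed with a change of at least 2-fold in the authors' deposited table, where 12.1% of all tested genes did so. The libraries of the media did not overlap for the same 7 genes, and did not overlap for 68.6% of all 16005 genes.

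**Figure D1:**
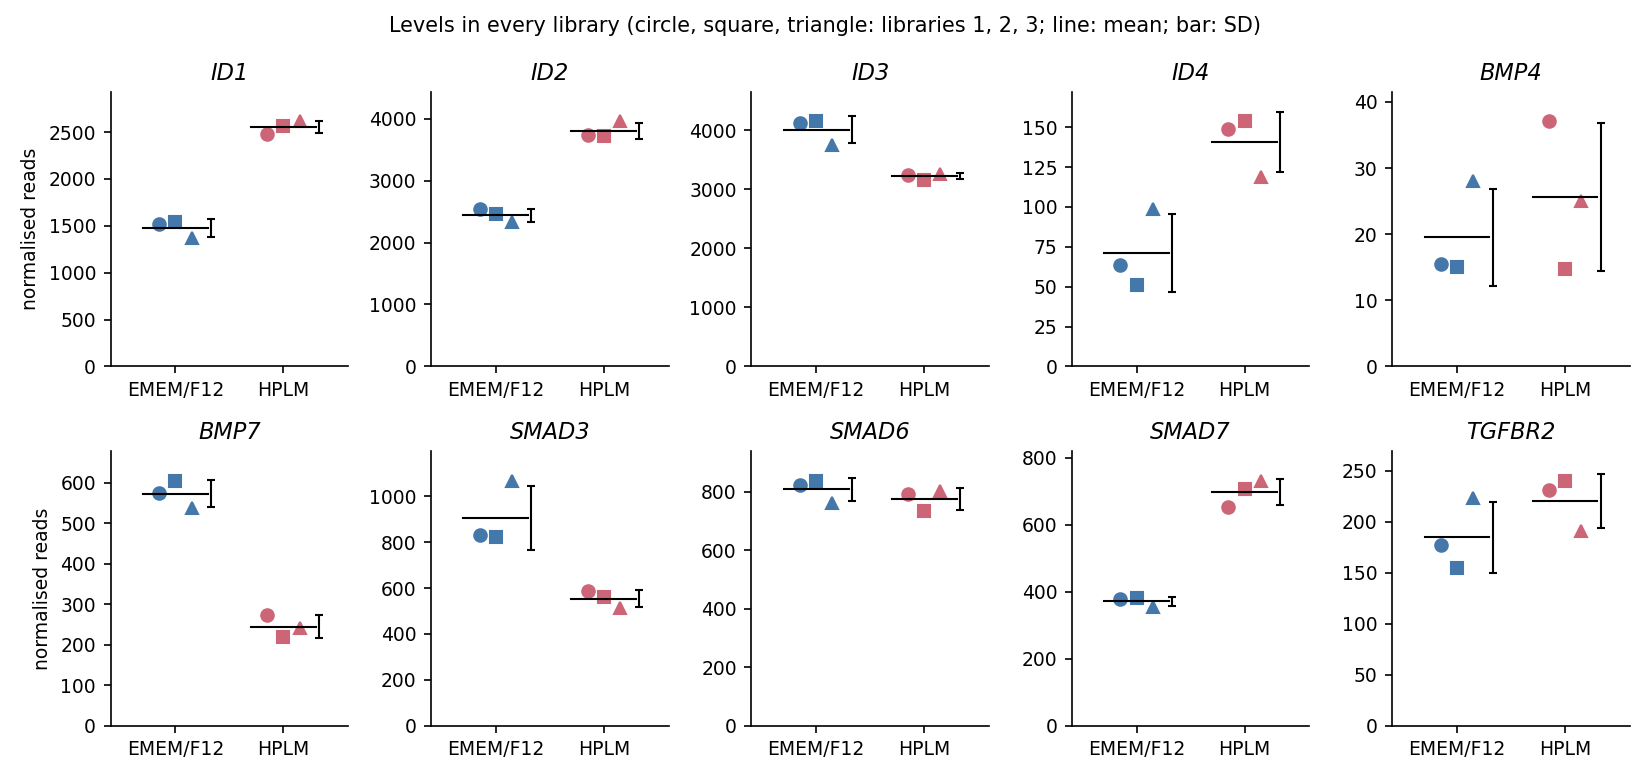
Normalised reads of the 10 genes in each of the 3 libraries of EMEM/F12 (blue) and HPLM (red), on axes that start at 0, with the mean (line) and the SD (bar). ID1, ID2, ID4 and SMAD7 lie higher and ID3, BMP7 and SMAD3 lower in every HPLM library than in any EMEM/F12 library, while BMP4, SMAD6 and TGFBR2 overlap.

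The bases before the annotated transcript starts of ID1, ID4, SMAD6 and SMAD7 are shown because SMAD proteins bind the letters GTCT, and bHLH dimers bind the E-box CANNTG. They come from RefSeq on GRCh38.p14, cover the 250 bases before a start and read 5' to 3' along the gene's strand. The windows are chr20:31605039-31605288 (plus strand) for ID1, chr6:19837120-19837369 (plus strand) for ID4, chr15:66701986-66702235 (plus strand) for SMAD6 and chr18:48949334-48949583 (minus strand) for SMAD7, which is the second of its 3 annotated starts from the upstream end. Capitals mark matches to GTCT (AGAC on the other strand), to the palindrome GTCTAGAC that joins both, and to the E-box.
ID1: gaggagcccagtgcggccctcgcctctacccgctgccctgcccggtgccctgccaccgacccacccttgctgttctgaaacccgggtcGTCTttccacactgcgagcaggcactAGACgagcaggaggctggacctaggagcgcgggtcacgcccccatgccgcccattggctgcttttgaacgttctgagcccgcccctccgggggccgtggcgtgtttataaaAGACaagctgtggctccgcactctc
ID4: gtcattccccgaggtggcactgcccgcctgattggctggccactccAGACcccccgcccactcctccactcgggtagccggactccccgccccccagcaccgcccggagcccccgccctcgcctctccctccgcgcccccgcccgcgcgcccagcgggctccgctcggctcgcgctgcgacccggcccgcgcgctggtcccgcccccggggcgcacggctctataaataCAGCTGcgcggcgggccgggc
SMAD6: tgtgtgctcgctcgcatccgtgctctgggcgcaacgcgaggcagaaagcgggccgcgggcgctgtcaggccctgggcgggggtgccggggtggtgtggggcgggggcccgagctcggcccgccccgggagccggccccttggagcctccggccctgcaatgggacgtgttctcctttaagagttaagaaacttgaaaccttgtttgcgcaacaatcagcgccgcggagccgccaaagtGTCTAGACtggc
SMAD7: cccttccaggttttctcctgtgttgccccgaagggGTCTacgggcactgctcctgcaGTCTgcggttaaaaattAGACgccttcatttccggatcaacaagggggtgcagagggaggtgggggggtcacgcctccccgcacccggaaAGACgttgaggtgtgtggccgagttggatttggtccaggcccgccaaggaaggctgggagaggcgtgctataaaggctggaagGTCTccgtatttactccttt
All motifs were searched on both strands. A match to the palindrome also counts as matches to GTCT. The ID1 window holds 3 matches to GTCT and the SMAD7 window 5, and the latter was chosen for print as the one with the most of the 3 SMAD7 windows, the others holding 4 and 1. The 18 windows of these genes hold 0 to 5, with 5 also in 1 of the 5 SMAD3 windows and 0 in 2 of them and in 1 of the 3 BMP4 windows. Over 35116 windows of the same length the median is 1, and 20.9% hold 3 or more. The SMAD6 window holds GTCTAGAC near its end, which 0.182% of all windows hold and which was found in 1 of the 18 windows of these genes. GTCT itself was present in 15 of the 18 and in 77.5% of all windows. The GC-rich SMAD motif GGCGCC, found in 16.4% of all windows, was present in 2 of the 18, a BMP4 and a SMAD3 window. The E-box CANNTG was present in 11 of the 18 windows and in 61.8% of all windows. Its form CACGTG, found in 6.34% of all windows, was present in 2 of the 18, again a BMP4 and a SMAD3 window. RefSeq windows were matched for 9 of the 10 genes, the exception being BMP7. Some windows reach into annotated exons of their own gene. The ID3 window and the SMAD7 window with 4 matches to GTCT lie in such exons with all 250 bases, and the ID2 window with 202. The matches describe letters in these windows only.

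The ID genes did not move as 1 block, since ID1, ID2 and ID4 rose and ID3 fell. ID1 (ENSG00000125968, chr20:31605283-31606515 on GRCh38, as for all genes below) had 1515, 1540 and 1366 normalised reads in EMEM/F12 libraries 1 to 3 and 2482, 2561 and 2613 in HPLM. Every HPLM library was thus above every EMEM/F12 library, with means of 1474 ± 94.3 and 2552 ± 66.1 (SD, n = 3 libraries each) and a log2 ratio of 0.79 ± 0.06, or 1.73-fold. In bulk RNA, fewer cells of a type and less RNA per cell cannot be told apart, here and for every gene below. The adjusted p of ID1 in the authors' deposited table was 3.71e-39.

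ID2 (ENSG00000115738, chr2:8678845-8684453) had 2535, 2464 and 2326 normalised reads in EMEM/F12 and 3736, 3714 and 3956 in HPLM. The media were separate here too, with means of 2442 ± 106 and 3802 ± 134 and a log2 ratio of 0.64 ± 0.05, or 1.56-fold. ID2 had an adjusted p of 1.18e-33 by DESeq2 in the authors' deposited table. ID2-AS1, an antisense gene whose exons overlap those of ID2, had 33.8 ± 6.36 and 52.9 ± 7.12 normalised reads, and as the kit keeps no strand, reads of the pair cannot be told apart where they overlap.

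ID3 (ENSG00000117318, chr1:23557918-23559794) went the other way, with 4128, 4147 and 3753 normalised reads in EMEM/F12 and 3248, 3160 and 3253 in HPLM. The lowest EMEM/F12 library, library 3, still lay above all HPLM libraries. The means were 4009 ± 222 and 3221 ± 52.2, the log2 ratio was -0.32 ± 0.05, and the level in HPLM was 1.24-fold lower. For ID3 the authors' deposited table gives an adjusted p of 2.39e-09.

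ID4 (ENSG00000172201, chr6:19837386-19840684) was the scarcest of the family, resting on 44 to 167 reads per library. It had 63.9, 51.1 and 98.5 normalised reads in EMEM/F12 and 149, 154 and 119 in HPLM. EMEM/F12 library 3 stood 1.71 times above the mean of libraries 1 and 2, which narrowed the gap between the media without closing it. The means were 71.2 ± 24.5 and 140.6 ± 18.9, and the log2 ratio of 0.98 ± 0.31 carried the widest error among the 7 genes that passed. The adjusted p of ID4 in the authors' deposited table was 5.73e-05. Without EMEM/F12 library 3 a DESeq2 fit gave a log2 change of 1.28 (adjusted p = 2.51e-08).

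Because ID1 and ID2 rose while ID3 fell, the make-up of the family shifted. Within each library a ratio of 2 genes does not depend on the scaling between libraries. Per kilobase of merged exons, the ratio of ID1 to ID3 was 0.53 to 0.54 in the EMEM/F12 libraries and 1.11 to 1.18 in the HPLM libraries. The ratio of ID2 to ID3 went from 0.497 ± 0.011 to 0.962 ± 0.027. The ratio of ID1 to ID2 moved less, from 1.08 ± 0.035 to 1.20 ± 0.028. For each of 4 such ratios, SMAD7 to SMAD6 included, all HPLM libraries lay above all EMEM/F12 libraries, and the exact two-sided permutation test gave p = 0.1 (0.1 after Benjamini-Hochberg adjustment over the 4), the smallest p that 3 against 3 libraries allow. EMEM/F12 library 3 did not stand apart in the ratio of ID1 to ID3, with an ID1 to ID3 ratio of 0.53 beside 0.53 and 0.54 in libraries 1 and 2.

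In reads per kilobase, ID3 made up 48.9% ± 0.249 of the summed ID level in EMEM/F12 and 31.7% ± 0.57 in HPLM. ID1 went from 26.2% ± 0.40 to 36.7% ± 0.554, and ID2 from 24.3% ± 0.417 to 30.5% ± 0.479. ID4 stayed near the floor of the family, at 0.674% ± 0.270 and 1.06% ± 0.162. The summed level was 4293 to 4703 normalised reads per kilobase in EMEM/F12 and 5578 to 5775 in HPLM. In EMEM/F12 the order of levels per kilobase was ID3 (2231 ± 124), ID1 (1195 ± 76.4) and ID2 (1107 ± 48.3), with ID1 and ID2 within their spread. In HPLM it was ID1 (2070 ± 53.6), ID3 (1792 ± 29.04) and ID2 (1724 ± 60.8), with ID3 and ID2 within their spread. Compared within each library, however, ID1 lay above ID2 throughout EMEM/F12 and ID3 above ID2 throughout HPLM. The order depends on the length used, because with the length of the longest principal transcript ID3 (2574 ± 41.7) and ID1 (2568 ± 66.5) did not differ in HPLM beyond their spread. The fold change of each gene and of each ratio between media does not depend on the length, whereas the shares of the sum do.

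**Figure D2:**
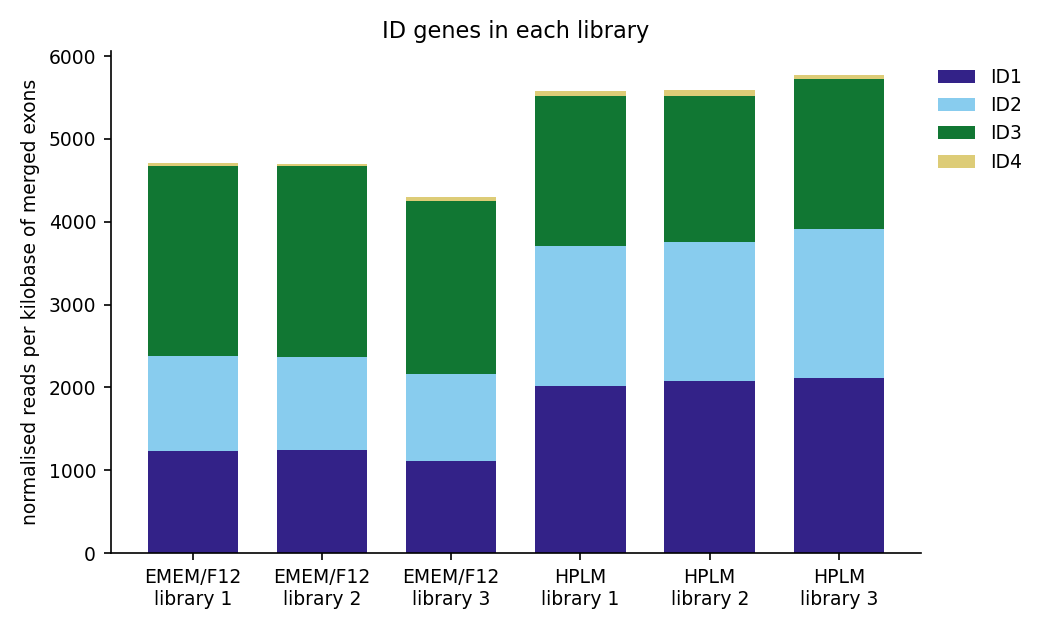
Normalised reads per kilobase of merged exons of ID1, ID2, ID3 and ID4, stacked for each of the 6 libraries, with no error bars since each bar is 1 library. ID3 is the largest part in the 3 EMEM/F12 libraries and ID1 in the 3 HPLM libraries, and ID4 is at most 1.17% of the sum.

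The other 6 genes lay far below ID1, ID2 and ID3. Per kilobase of merged exons in EMEM/F12, the order after ID1, ID2 and ID3 was BMP7 (106 ± 6.23), SMAD3 (99.4 ± 15.4), SMAD6 (94.3 ± 4.70), SMAD7 (73.8 ± 2.89), TGFBR2 (39.3 ± 7.40), ID4 (30.4 ± 10.5) and BMP4 (6.33 ± 2.38), where neither BMP7 and SMAD3, SMAD3 and SMAD6, nor TGFBR2 and ID4 differed beyond their spread. In HPLM it was SMAD7 (139 ± 7.87), SMAD6 (90.7 ± 4.47), SMAD3 (60.8 ± 4.15), ID4 (59.98 ± 8.07), TGFBR2 (46.9 ± 5.63), BMP7 (45.2 ± 5.16) and BMP4 (8.31 ± 3.63). There SMAD3 and ID4, ID4 and TGFBR2, and TGFBR2 and BMP7 did not differ beyond their spread. Library by library, however, TGFBR2 lay above ID4 throughout EMEM/F12 and ID4 above TGFBR2 throughout HPLM. The order of these genes, too, depends on the length used. With the length of the longest principal transcript, SMAD6 (202 ± 9.98) lay above SMAD7 (158 ± 8.95) in HPLM. In EMEM/F12, SMAD6 (211 ± 10.5) then lay above SMAD3 (145 ± 22.5) and BMP7 (143 ± 8.40).

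Among the signal transducers, the inhibitory SMAD7 rose, its partner SMAD6 did not pass, and SMAD3 fell. SMAD7 (ENSG00000101665, chr18:48919853-48952052), which blocks receptors of both branches, had 378, 381 and 355 normalised reads in EMEM/F12 and 655, 708 and 732 in HPLM. The media did not overlap, with means of 371 ± 14.6 and 698 ± 39.6 and a log2 ratio of 0.91 ± 0.06, or 1.88-fold. For SMAD7 the authors' deposited table gives an adjusted p of 2.94e-21. SMAD6 (ENSG00000137834, chr15:66702228-66782848), which acts mainly on the BMP branch, had 824, 838 and 762 normalised reads in EMEM/F12 and 792, 733 and 804 in HPLM. Its libraries overlapped, with means of 808 ± 40.2 and 776 ± 38.3 and a log2 ratio of -0.06 ± 0.06. The adjusted p of SMAD6 in the authors' deposited table was 0.564, which does not show that the media are alike.

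SMAD3 (ENSG00000166949, chr15:67063763-67195195), which carries TGF-beta and activin signals, had 829.7, 821 and 1068 normalised reads in EMEM/F12 and 589, 559.6 and 514 in HPLM. All HPLM libraries were lower, and EMEM/F12 library 3 was the highest of all. The means were 906 ± 140.4 and 554 ± 37.8, the log2 ratio was -0.71 ± 0.14, and the level in HPLM was 1.63-fold lower. The adjusted p of SMAD3 in the authors' deposited table was 1.41e-11, and without EMEM/F12 library 3 a DESeq2 fit gave a log2 change of -0.58 (adjusted p = 1.52e-11). SMAD3 shares exon sequence with the antisense gene AC087482.1, which is not analysed here.

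All 8 SMAD genes were measured, of which 5 rose, 1 fell and 2 did not pass, with a median log2 fold change of 0.25 in the authors' deposited table beside 0.0085 over all genes. Thus 75% of the SMAD genes passed, where 55.6% of all tested genes did, 26.8% as higher and 28.8% as lower. Each of the BMP-branch transducers rose. SMAD1 went from 406 ± 18.8 to 615 ± 37.4 normalised reads (log2 ratio 0.60 ± 0.06), SMAD9 from 2645 ± 182 to 3865 ± 69.6 (0.55 ± 0.06), and SMAD5 from 1350 ± 17.4 to 1622 ± 34.4 (0.26 ± 0.02). In the TGF-beta branch SMAD2 rose (0.23 ± 0.02) where SMAD3 fell, and the shared SMAD4 had a log2 ratio of 0.12 ± 0.03 (adjusted p = 0.189 in the authors' deposited table). The counts for the SMAD genes were 5 and 1 with each library left out in turn.

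Of the ligands, BMP7 fell, while BMP4 was low and did not pass. BMP7 (ENSG00000101144, chr20:57168748-57266629), whose protein is a BMP of kidney, eye and nervous system development, had 575, 606 and 538 normalised reads in EMEM/F12 and 275, 219 and 241 in HPLM. The lowest EMEM/F12 library was well above the highest HPLM library. With means of 573 ± 33.7 and 245 ± 28.0, the log2 ratio was -1.23 ± 0.11, a 2.34-fold lower level in HPLM and the largest change in size among the 10 genes. DESeq2 in the authors' deposited table gave BMP7 an adjusted p of 3.44e-27. BMP4 (ENSG00000125378, chr14:53949736-53958761), whose protein patterns the dorsal nervous system and neural crest, had 15.5, 15.1 and 28.0 normalised reads in EMEM/F12 and 37.1, 14.7 and 25.03 in HPLM. It rested on 13 to 39 reads per library, its libraries overlapped, and its log2 ratio of 0.39 ± 0.48 was smaller than its error. The adjusted p of BMP4 in the authors' deposited table was 0.493, so a change was not detectable at this depth.

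Of 32 ligand genes listed, 16 were in the table, of which 2 rose, 5 fell and 9 did not pass, with a median log2 fold change of 0.15 in the authors' deposited table. The share of ligand genes that passed was 43.75%, beside 55.6% of all tested genes. Both genes that rose changed more than any of the 10 genes described here. TGFB1, the gene of TGF-beta 1, went from 1362 ± 29.2 to 3842 ± 48.2 normalised reads (log2 ratio 1.496 ± 0.02). INHBE, which encodes the inhibin beta E subunit, went from 364 ± 22.4 to 1708 ± 40.6 (2.23 ± 0.05). Beside BMP7, the genes that fell and had a mean of at least 100 were GDF11 (-0.25 ± 0.05), an activin-like ligand, and AMH (-0.41 ± 0.16), the anti-Müllerian hormone gene. TGFB3 (-1.32 ± 0.12) and BMP8B (-0.99 ± 0.23), ligand genes below that mean, fell too and were named after their values were seen. AMH no longer passed without EMEM/F12 library 1 (adjusted p = 0.0925 in DESeq2), EMEM/F12 library 2 (0.0632) or HPLM library 3 (0.0576). Without EMEM/F12 library 2 there were 3 ligand genes that fell, and without EMEM/F12 library 3 there were 5 that rose, the additional ones being BMP2, GDF5 and INHBA. Over all 16005 genes, 4014 fell without EMEM/F12 library 2 and 4697 rose without EMEM/F12 library 3.

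TGFBR2 (ENSG00000163513, chr3:30606502-30694142), the type II receptor for TGF-beta, had 177, 155 and 223 normalised reads in EMEM/F12 and 231, 240.2 and 190 in HPLM. The libraries overlapped, as EMEM/F12 library 3 lay above HPLM library 3. The means were 185 ± 34.8 and 220.5 ± 26.5, with a log2 ratio of 0.25 ± 0.19. TGFBR2 did not pass, with an adjusted p of 0.178 in the authors' deposited table. Without EMEM/F12 library 3, where TGFBR2 stood 1.34 times above the mean of libraries 1 and 2 and the fibroblast and mesenchymal marker sums were highest, a DESeq2 fit gave a log2 change of 0.40 (adjusted p = 0.0163). With any other single library left out it did not pass, and the log2 change was at least 0.14. The part of the marker-bearing RNA in the TGFBR2 values was not tested.

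Of 21 receptor and co-receptor symbols listed, 16 were in the table, of which 7 rose, 3 fell and 6 did not pass, with a median log2 fold change of 0.23 in the authors' deposited table. Of these 16, 62.5% passed, beside 55.6% of all tested genes. Among receptors, ACVR2A, a type II receptor gene for activins, went up from 99.5 ± 12.8 to 207 ± 16.6 normalised reads (log2 ratio 1.05 ± 0.13). The co-receptor genes of the repulsive guidance family split, with RGMB higher (0.89 ± 0.07) and RGMA lower, from 307 ± 28.7 to 87.4 ± 11.7 (-1.81 ± 0.14). BAMBI, a decoy receptor that dampens the pathway, rose from 588 ± 19.4 to 871 ± 16.8 (0.57 ± 0.03). The others that rose were the type I receptor genes ACVR1 (0.54 ± 0.07), TGFBR1 (0.41 ± 0.05) and BMPR1A (0.33 ± 0.04) and the BMP type II receptor gene BMPR2 (0.30 ± 0.04). These 4 and AMHR2, the AMH receptor gene, which fell (-1.70 ± 0.23), were named after their values were seen. ACVRL1, a type I receptor gene of endothelium, fell (-0.33 ± 0.12) but no longer passed without EMEM/F12 library 1 or 2 or HPLM library 1 or 2 (adjusted p = 0.0779, 0.247, 0.135 and 0.121 in DESeq2).

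**Figure D3:**
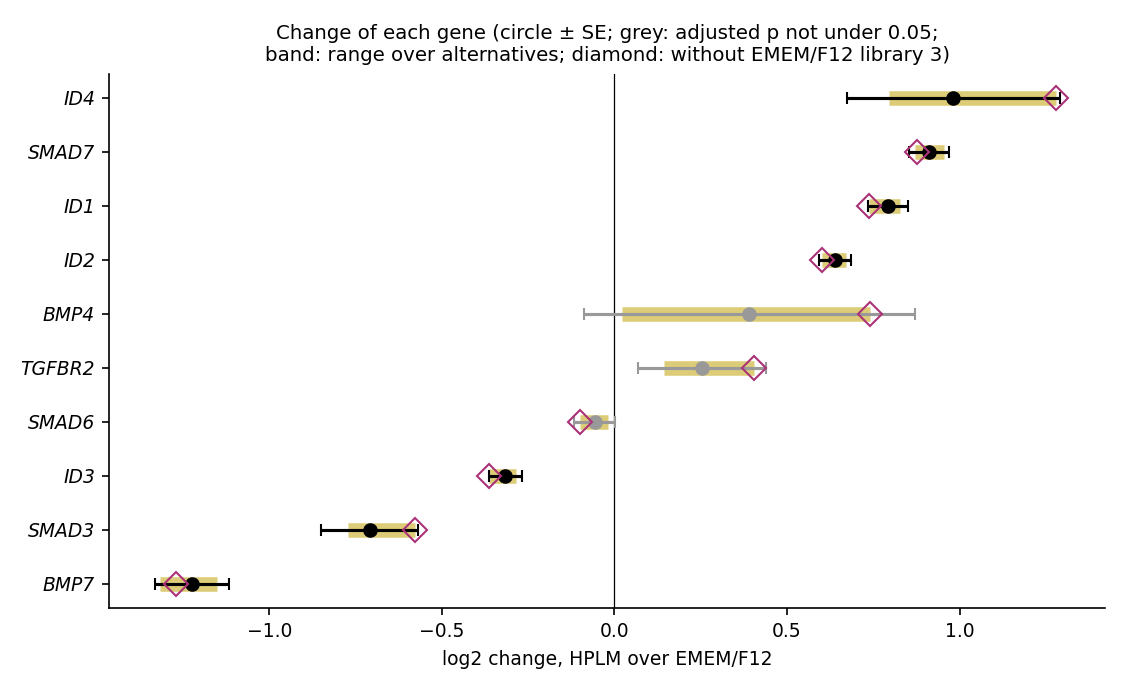
Log2 ratio of the mean in HPLM over the mean in EMEM/F12 for the 10 genes (circle ± SE; grey where the adjusted p was not under 0.05), the range of the log2 change over the alternative fits (band) and the value without EMEM/F12 library 3 (open diamond). ID4, BMP4, SMAD3 and TGFBR2 shift most without that library. No band crosses 0, but the bands span estimates without their error. BMP4, SMAD6 and TGFBR2 did not pass in the authors' deposited table.

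Extracellular antagonists and proteins that hold TGF-beta latent were measured for 16 of 20 listed genes, of which 2 rose, 3 fell and 11 did not pass, with a median log2 fold change of 0.20 in the authors' deposited table. In this list 31.25% passed, beside 55.6% of all tested genes. LTBP3, which encodes a latent TGF-beta binding protein, fell from 1932 ± 116 to 1158 ± 53.4 normalised reads (log2 ratio -0.74 ± 0.06). Its relative LTBP4 rose (0.18 ± 0.03). NBL1 (-1.12 ± 0.05) and LRRC32 (-1.12 ± 0.08) fell at low levels and were named after their values were seen. This list turned on EMEM/F12 library 3, without which 7 of its genes rose. Over all 16005 genes, 4697 rose without that library. Those added to the list's risers were GREM1 and FST, antagonists of BMPs and activins, BMPER, LTBP1 and LTBP2. GREM1 had 565, 789 and 1984 normalised reads in EMEM/F12 and 1799, 1890 and 1612 in HPLM, so that library 3 exceeded every HPLM library. Without EMEM/F12 library 1, EMEM/F12 library 2, HPLM library 2 or HPLM library 3 there was 1 gene of this list that rose.

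Intracellular modulators were measured for 23 of 24 listed genes, of which 10 rose, 3 fell and 10 did not pass, with a median log2 fold change of 0.22 in the authors' deposited table. With 56.5% passing, the list was close to the 55.6% of all tested genes. Genes of SMAD co-repressors moved apart, as SKIL, which binds SMAD proteins and represses their targets, went up from 499.5 ± 47.5 to 1031 ± 24.3 normalised reads (log2 ratio 1.05 ± 0.08) and TGIF2, a homeobox co-repressor gene, fell from 756 ± 34.8 to 167 ± 14.4 (-2.18 ± 0.08). PMEPA1, whose protein restrains SMAD2 and SMAD3 signalling, fell from 1027 ± 110.2 to 488 ± 38.2 (-1.07 ± 0.11), and the BMP-SMAD cofactor gene ZNF423 fell too (-0.63 ± 0.14). ZEB2, a SMAD-binding repressor gene, rose (0.88 ± 0.05), as did SMURF2, a ubiquitin ligase gene that works with SMAD7 (0.44 ± 0.07).

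Of 19 listed BMP target genes 18 were measured, of which 9 rose, 5 fell and 4 did not pass, with a median log2 fold change of 0.45 in the authors' deposited table. Thus 77.8% passed, where 55.6% of all tested genes did, 26.8% as higher and 28.8% as lower. The list holds ID1, ID2, ID3, SMAD6 and SMAD7 themselves. Outside them, HEY1, which encodes a bHLH repressor, went up from 838 ± 28.0 to 2307 ± 5.71 normalised reads (log2 ratio 1.46 ± 0.03). The homeobox genes MSX2 (383 ± 11.2 to 1035 ± 47.5, 1.43 ± 0.05) and MSX1 (69.3 ± 7.43 to 179 ± 24.1, 1.37 ± 0.14) rose as well. The genes that fell, beside ID3, were the sympathetic regulators GATA2 (-0.98 ± 0.08), HAND1 (-0.75 ± 0.07), PHOX2A (-0.72 ± 0.10) and HAND2 (-0.44 ± 0.06), the last named after its value was seen. GATA2, HAND2 and PHOX2A are also adrenergic markers, whose summed level was lower in HPLM than in EMEM/F12. The 12 adrenergic markers did not move as 1 block, as 8 fell, 3 rose and 1 did not pass. GATA3, in both the BMP target and the adrenergic list, rose (0.35 ± 0.09) and was named after its value was seen. MYCN, also in that marker list, had a log2 ratio of -1.30 ± 0.08.

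TGF-beta target genes were measured for 19 of 20 listed symbols, of which 6 rose, 2 fell and 11 did not pass, with a median log2 fold change of 0.35 in the authors' deposited table. The share that passed was 42.1%, beside 55.6% of all tested genes. SKIL and SMAD7 led the risers, followed by CDKN2B, which encodes a cell cycle inhibitor and went up from 136 ± 10.95 to 226 ± 7.73 normalised reads (log2 ratio 0.73 ± 0.07). SNAI1, a repressor gene of epithelial-mesenchymal transition, fell from 491 ± 49.1 to 206 ± 18.4 (-1.25 ± 0.11), along with PMEPA1. Without EMEM/F12 library 3 there were 14 that rose, with COL1A1, FN1, CTGF, TGFBI, TAGLN, THBS1 and LTBP2 among those added. COL1A1, a collagen gene that is also in the fibroblast list, had 21276, 22731 and 53750 normalised reads in EMEM/F12 and 46585, 48410 and 43007 in HPLM. In HPLM its level was 2.09 times the mean of EMEM/F12 libraries 1 and 2, and in EMEM/F12 library 3 it was 2.44 times that mean. Without that library 59.8% of all 16005 genes passed, and 4697 rose.

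**Figure D4:**
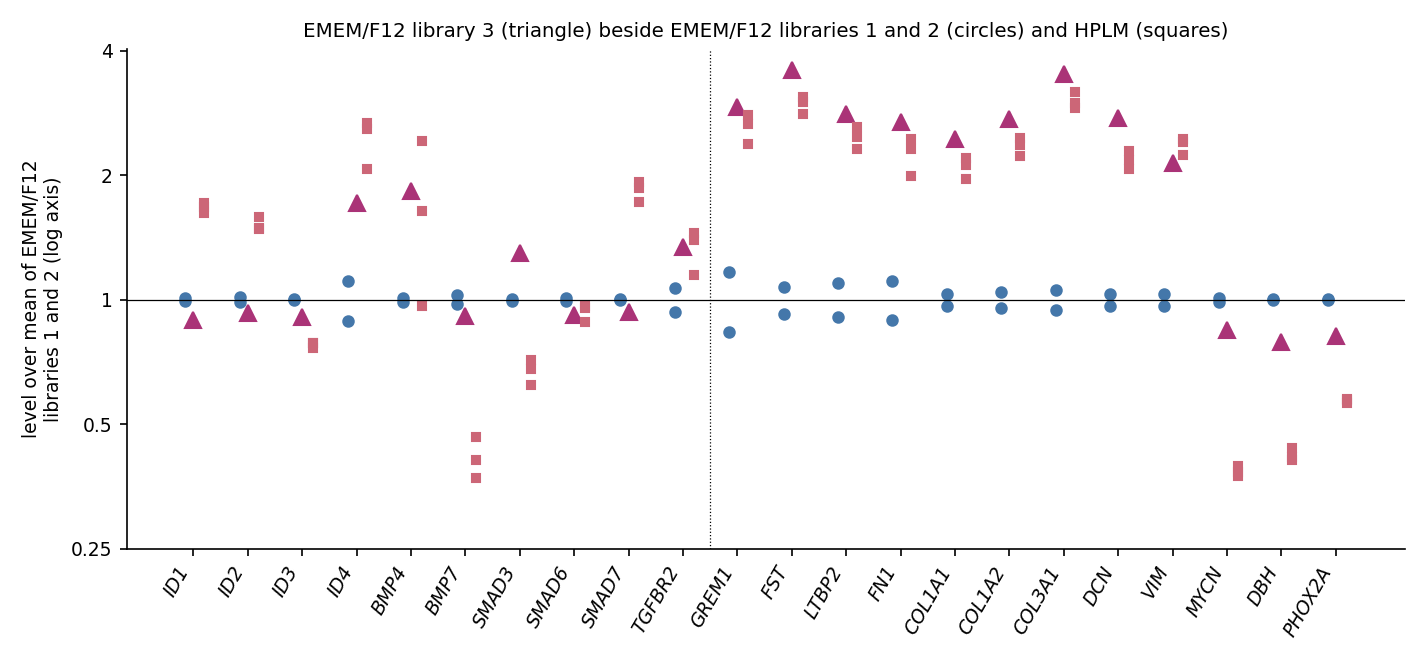
Level of each gene in every library relative to the mean of EMEM/F12 libraries 1 and 2, on a log axis, for the 10 genes (left of the dotted line) and for antagonist, matrix and adrenergic genes (right). EMEM/F12 library 3 lies with or above the HPLM libraries for GREM1, FST, LTBP2, FN1 and the collagen genes, and with EMEM/F12 libraries 1 and 2 for ID1, ID2, ID3, BMP7, SMAD6 and SMAD7, where its ratio is 0.894 to 0.934.

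The bHLH genes whose products ID proteins can bind or that work beside them moved in both directions. Of 29 listed, 16 were measured, of which 5 rose, 6 fell and 5 did not pass, with a median log2 fold change of -0.09 in the authors' deposited table. In this list 68.75% passed, beside 55.6% of all tested genes. Among the E proteins, which ID proteins bind most directly, TCF3 fell from 6249 ± 597 to 2721 ± 35.9 normalised reads (log2 ratio -1.20 ± 0.08) and TCF12 rose from 3145 ± 65.3 to 3803 ± 13.9 (0.27 ± 0.02). TCF4 had a log2 ratio of -0.04 ± 0.03 (adjusted p = 0.44 in the authors' deposited table). Among the tissue-restricted partners, TWIST1 (-0.997 ± 0.12) and HAND1 fell. HEY1, counted above with the BMP targets, rose. HES4 (0.60 ± 0.21) and the neuronal bHLH gene NHLH1 rose at low levels and were named after their values were seen, NHLH1 going from 4.66 ± 2.60 to 75.2 ± 15.3 normalised reads.

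**Figure D5:**
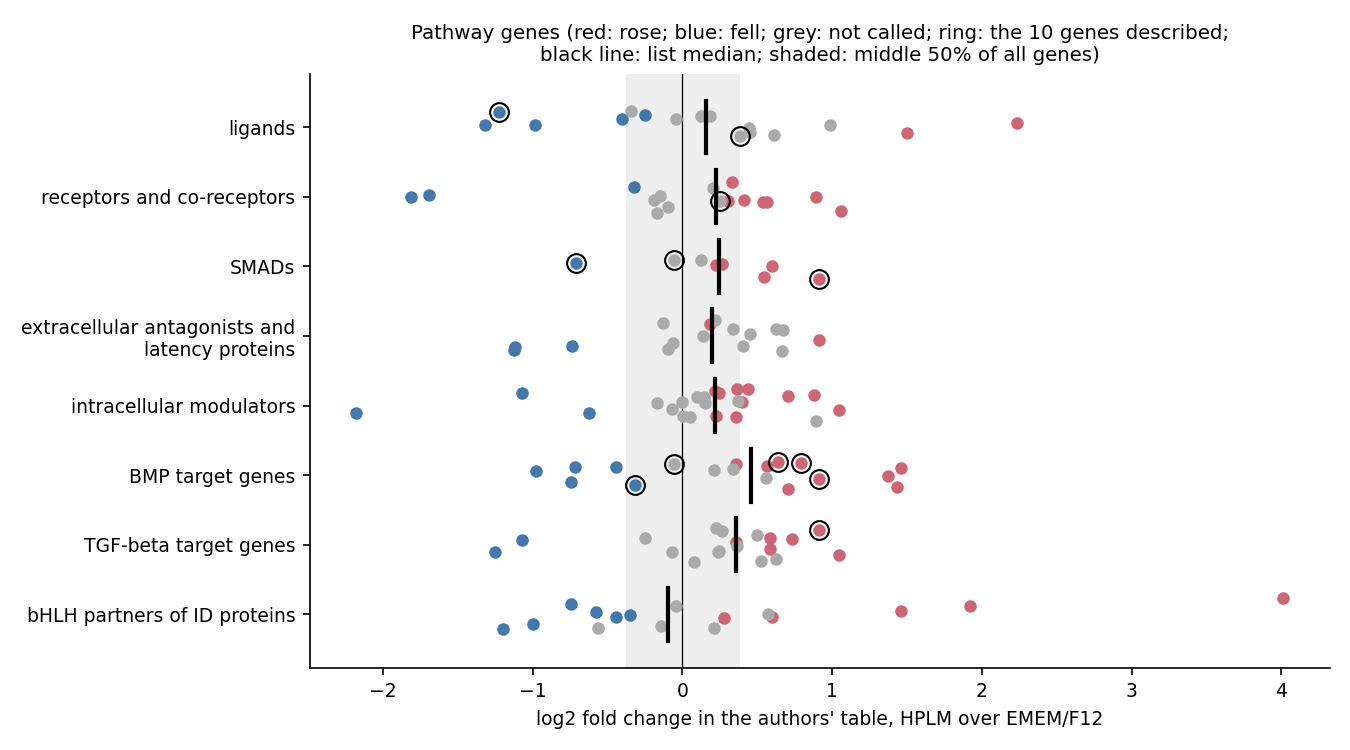
Log2 fold change of HPLM over EMEM/F12 in the authors' deposited table for each measured gene of the 8 pathway lists (red rose, blue fell, grey did not pass), with list medians (black lines), the described genes ringed (all but ID4, which is in no list) and the middle 50% of all genes shaded. Genes lie on both sides of 0 in every list, and medians run from -0.09 for bHLH partners to 0.45 for BMP targets.

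Over the 8 lists, 120 of 160 symbols were in the table, and 66 of these passed the test, which is 55.0% and close to the 55.6% of all genes. Without the 9 of the 10 described genes that stand in a list, 38 of 111 rose and 22 fell. Over all tested genes 26.8% rose and 28.8% fell, and whether the lists differ from all genes was not tested. The genes whose log2(value + 1) followed ID4 most closely over the 6 libraries, taken from genes averaging 100 or more, were RPP14, C11orf54, SELENOK, SSFA2 and OTUD6B, with Pearson's r of 0.991 to 0.997. The 6 points fall into 2 media and share their libraries' depth, and these 5 genes changed less than ID4, with log2 ratios of 0.21 to 0.45.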

How the data were processed

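RNA of 2 samples of BE(2)-C cells, 1 per medium, was measured with 3 library columns each in 1 table of the whole series. The submitters' processing notes name build GRCh38, DESeq2, Subread 1.5.2, STAR 2.5.2b and Trimmomatic 0.36, but not their roles. Which annotation, strand setting or filter was applied is not given in the sources used here, and the TruSeq version 2 kit named in the labels' protocols does not mark strand. Per the file headers, the table also gives the authors' fold change of each gene as log2, with its p-value and adjusted p-value. Each library column is a normalised signal: the deposited values are read counts over 1 scale factor for each library, and whole reads were recovered for 100% of values within 0.01 reads. Spike-ins (46 lines) were left out of all gene counts, and no gene had fewer than 61 reads over the 6 libraries. For a count of 0 the upper limit, 3 reads, equals 2.68 to 3.49 normalised reads and covers counting error only.

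As the library columns of a medium match 1 listed sample, the main test was the authors' DESeq2 test at an adjusted p under 0.05, fitted over the whole table. Means, SDs and log2 ratios with propagated SEs over the 3 libraries of a medium used scipy 1.17.1, numpy 2.4.6, pandas 2.3.3 and statsmodels 0.14.6 under Python 3.11.15, and figures with matplotlib 3.10.9. Alternatives used R 4.3.3 with DESeq2 1.42.0, edgeR 4.0.16 and limma 3.58.1 on recovered reads or on log2(value + 1) and log2(value + 10), and were tested on simulated data. Coordinates, overlaps and lengths came from GENCODE release 29, and promoter windows from RefSeq.

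The 10 genes and the lists were chosen with earlier results of these data known. From each list up to 3 called genes per direction with the largest change and a mean of at least 100 are named, all 10 genes and MYCN without regard to change, the 5 genes most like ID4, and others where the text says so. Marker lists are given as summed levels and counts of genes. Some genes that the rule names are not reported here.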

Additional observations from a re-analysis of the deposited data

How the results depend on the processing

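The 10 genes were examined under 18 settings, which gave 179 values because BMP4 lies below a mean of 100. Not all settings were new fits. Recentring on the median gene, the minimum mean, adjusted p under 0.01 and the 2-fold demand reused the authors' deposited test. DESeq2 on recovered reads repeated that test with the same log2 changes, so agreement under these settings was largely fixed in advance. Of the 179 values, 172 kept direction and side of the threshold, 6 lost the call, 1 gained it and 0 reversed. The 6 are the demand for at least 2-fold, under which ID1 (0.79), ID2 (0.64), ID3 (-0.32), ID4 (0.98), SMAD3 (-0.71) and SMAD7 (0.91) drop out, leaving 1 of 7 calls, 19 of 66 pathway genes and 1940 of 8905 genes (863 of 4293 higher, 1077 of 4612 lower). The gain is TGFBR2 without EMEM/F12 library 3 (0.40), and its range with each library left out was 0.14 to 0.40. With each library left out, 7 to 8 of the 10 genes, 60 to 87 of the pathway genes and 7886 to 9565 of all genes passed, and edgeR with TMM called 7, 74 and 10258.

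Deviations of same-numbered libraries from the means of their media had correlations of -0.08, -0.14 and -0.24. Differently numbered libraries had -0.16 to 0.23. As deviations within a medium depend on each other, these values cannot decide whether libraries were paired. With the library number as a replicate block 7 of the 10 genes and 7197 genes passed, and LTBP4 (adjusted p = 0.0625) and ACVRL1 (0.149) did not.

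With the length of the principal transcript, chosen after seeing the data, the per-kilobase ratios in EMEM/F12 and HPLM were 0.462 and 0.998 for ID1 to ID3, 0.374 and 0.724 for ID2 to ID3, and 1.24 and 1.38 for ID1 to ID2.

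List counts beyond 1.5 times, apart from those with single libraries given above, were as follows. Receptors that fell numbered 3, and 5 under edgeR with DESeq2 size factors and both limma fits, or 6 scaled on spike-ins. Antagonists that rose numbered 2, and 5 with limma on log2(value + 10), 0 under the block, and 1 with a mean of at least 100 or adjusted p under 0.01. With that minimum mean 1 of 3 antagonists and 3 of 5 ligands fell and 3 of 5 bHLH genes rose. By at least 2-fold, ligands that fell numbered 2, receptors that rose 1, SMADs 0 and 0, antagonists that rose 0, modulators that rose 1, BMP targets 3 and 0, TGF-beta targets that rose 1, and bHLH genes 3 and 1.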
